A study of Homo sapiens with 4 samples.

Results

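Glycolysis, the pentose phosphate pathway and glycogen metabolism share their substrates, and the genes described here encode the enzymes and transporters of these routes. The set held 36 genes chosen by symbol, from the hexokinases to the monocarboxylate transporters, and 35 of them were tested among the 11657 genes tested in all, while ALDOC was not analysed here. To find candidate genes downstream of KIAA1429, the study sequenced RNA from HCCLM3, a human hepatocellular carcinoma cell line. The 4 samples were 2 that carried the control hairpin shCtrl and 2 that carried shKIAA1429, a hairpin against KIAA1429 (current symbol VIRMA), a subunit of the enzyme complex that adds the mark N6-methyladenosine (m6A) to messenger RNA. The study describes the knockdown cells as stable, both groups carried a hairpin, and the labels name no other agent or allele and do not say whether the replicates came from separate cultures.

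Glycolysis splits glucose into pyruvate, and hexokinase, phosphofructokinase and pyruvate kinase catalyse its steps that are practically irreversible. The pentose phosphate pathway branches off after the hexokinase step to make NADPH and ribose phosphate, and glycogen is built from and broken down to glucose 1-phosphate. Many of these steps have several isozymes from separate genes, and the mixture differs between tissues and is often altered in tumours, where pyruvate tends to be turned into lactate that leaves the cell.

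Values are FPKM, fragments per kilobase of transcript scaled to the number of mapped fragments, summed over the listed transcripts of a gene. Fold changes are shKIAA1429 against shCtrl on the scale of log2(FPKM + 1), tested with limma, and p-values were adjusted over all genes by Benjamini and Hochberg's method. A gene was called where its adjusted p was under 0.05 and its log2 fold change exceeded 1 in size. The targeted gene VIRMA had 9.37 and 14.1 FPKM in the shCtrl samples (replicate 1 first, as in all pairs of values given here) and 6.90 and 8.52 in the shKIAA1429 samples (log2 fold change -0.53 ± 0.24 SE, limma adjusted p = 0.917). Both knockdown samples were below both controls, but VIRMA did not pass the test. The summed FPKM of the listed genes was between 370254 and 390224 per library, and read depth is unknown. Of 12 hepatocyte markers, KRT8, KRT18 and SERPINA1 had values and the other 9, ALB, AFP and HNF4A among them, had no row in the tables used here, so the liver origin rests on the label. The 3 summed to between 2093 and 2211 FPKM, nearly all of it from the keratins KRT8 and KRT18. KRT8 ranged from 1019 to 1176 FPKM and KRT18 from 971 to 1073, but SERPINA1 only from 3.34 to 5.63. Of the leukocyte, endothelial and fibroblast markers, CD14 was between 2.68 and 4.12 FPKM, 3 fibroblast genes summed to between 9.05 and 11.7, and the endothelial markers had no row in the tables used here.

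To show what the transcript values below refer to, the alternative exons that set the main isoforms of 2 members are printed first, read from GRCh37 on the sense strand. PKM, pyruvate kinase, includes either exon 9, which makes the M1 form of differentiated muscle and brain, or exon 10, which makes the M2 form typical of proliferating cells and tumours. Both exons are 167 bases long, and capitals mark the 62 bases at which they differ (62.9% identical). Of the 55 whole codons, 22 encode different residues. Exon 9 is chr15:72495363-72495529 and exon 10 is chr15:72494795-72494961, both on the minus strand.
PKM exon 9: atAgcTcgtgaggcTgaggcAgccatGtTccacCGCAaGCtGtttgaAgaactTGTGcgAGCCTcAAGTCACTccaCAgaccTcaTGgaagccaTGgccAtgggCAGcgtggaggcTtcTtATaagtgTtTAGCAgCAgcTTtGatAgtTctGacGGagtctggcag
PKM exon 10: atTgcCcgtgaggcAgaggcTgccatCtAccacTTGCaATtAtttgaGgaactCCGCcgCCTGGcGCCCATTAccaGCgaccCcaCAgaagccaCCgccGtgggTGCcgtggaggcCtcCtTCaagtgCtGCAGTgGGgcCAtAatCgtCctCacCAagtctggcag

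HK1, hexokinase 1, had 4 listed transcripts, and HK1-201 and HK1-202 start in different first exons and share 17 coding exons. HK1-202 encodes the widespread form, whose first residues bind the mitochondrial outer membrane, and HK1-201 encodes the form known from red blood cells, which lacks them. The coding bases of each first exon are given, 60 in HK1-201 at chr10:71075711-71075770 and 63 in HK1-202 at chr10:71078704-71078766, both on the plus strand, with the start codon in capitals.
HK1-201 first coding exon: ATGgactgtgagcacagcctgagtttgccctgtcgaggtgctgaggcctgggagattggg
HK1-202 first coding exon: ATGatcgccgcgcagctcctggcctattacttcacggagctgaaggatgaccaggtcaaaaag

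Across the 35 members, differences between the groups were small and none was called. HK2, a hexokinase, and PFKFB3, a regulator of phosphofructokinase, had the lowest unadjusted p and lower values in the knockdown samples, while the groups overlapped for most other members. With limma, 0 of the 35 were called, against 0 of 11657 genes (0% of those tested), and the smallest adjusted p of a member was 0.730. The study itself reported differentially expressed genes in the knockdown cells from its count pipeline, whose counts were not used here. An unadjusted p under 0.05 was reached by 2 members that were lower and by 0 that were higher, where 2.65% of all genes were lower and 2.98% higher at that p. This count of 2 was 1 without either shCtrl replicate, 0 without shKIAA1429 replicate 1 and 3 without shKIAA1429 replicate 2.

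Both knockdown samples lay above both controls for 4 members, ALDOA, GPI, PGM1 and PKM, where 16.9% of all genes did so. Both lay below for 5 members, HK2, PFKFB3, PFKM, PFKP and RPE, where 16.7% of all genes did so. These shares of the members are near those of all genes. The median log2 fold change was -0.03 for the members and -0.01 for all genes tested, and the members ranged from -0.75 for ENO1 to 0.35 for PGLS. The members' median changed sign to 0.02 without shCtrl replicate 2 and to 0.03 without shKIAA1429 replicate 1. A log2 fold change within 0.1 of zero was found for 18 of the 35 members (51.4%) and for 38.3% of all genes.

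**Figure D1:**
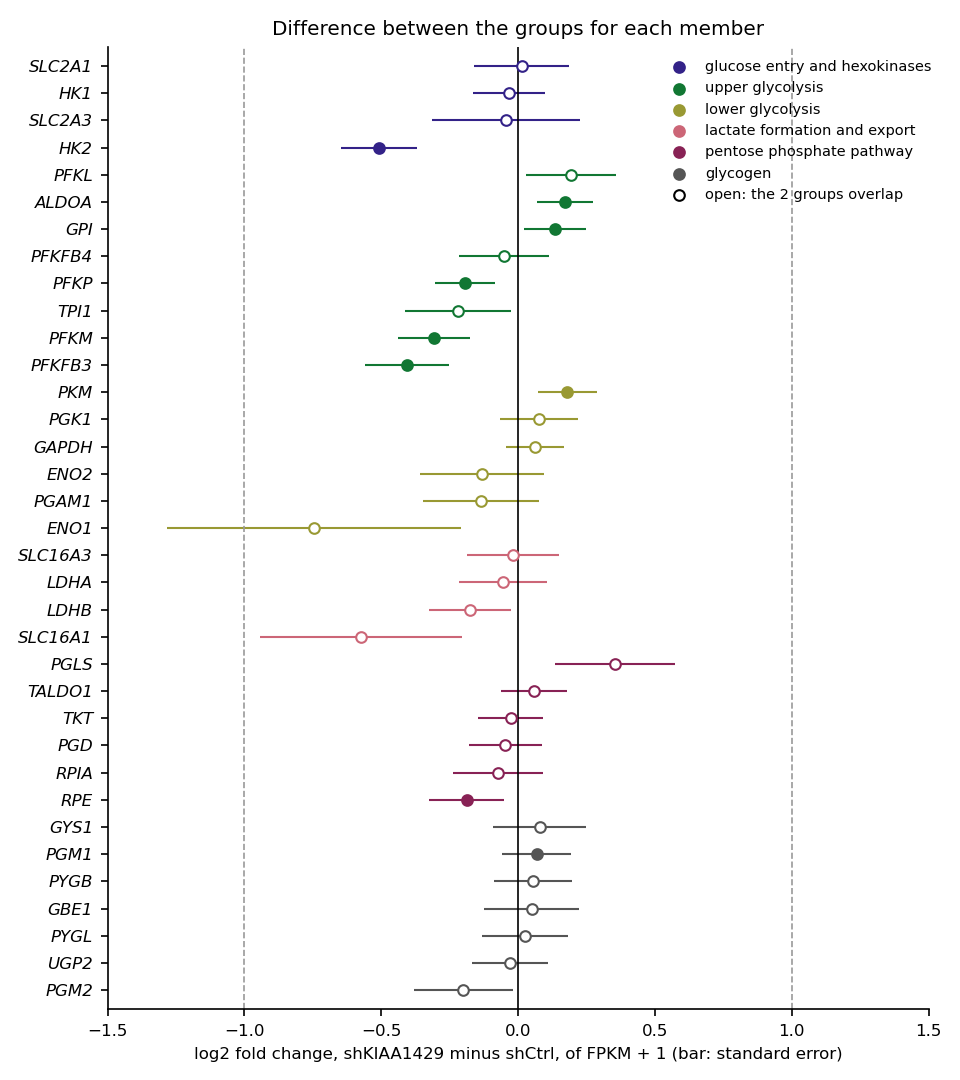
Log2 fold change of FPKM + 1 (shKIAA1429 minus shCtrl, horizontal axis) of the 35 members, with standard errors as bars, coloured by role. Filled points are members whose 2 groups did not overlap. No member passes the dashed lines at -1 and 1, and ENO1 and SLC16A1 have the widest bars.

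Glucose entry and its first phosphorylation were covered by 4 members, of which 3 lay within 0.1 of zero on the log2 scale. HK2, the hexokinase 2 that is low in normal liver and high in many tumours (ENSG00000159399.9_3, chr2:75061108-75120486, plus strand, GRCh37), had 22.2 and 24.3 FPKM in the controls and 15.6 and 16.5 in the knockdown samples. The groups did not overlap, and the knockdown samples were lower. The means were 23.2 ± 1.47 and 16.04 ± 0.635 FPKM (SD, n = 2 each), a log2 fold change of -0.51 ± 0.14 SE (limma unadjusted p = 0.015, adjusted p = 0.730). A change at least as large in size was found in 7.19% of all genes. In this bulk RNA, fewer cells with the transcript and less transcript per cell cannot be told apart.

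HK1 had 36.2 and 37.3 FPKM in the controls and 34.1 and 37.8 in the knockdown samples, and the groups overlapped (log2 fold change -0.03 ± 0.13 SE). Of the summed FPKM of HK1 and HK2, HK2 made up 38.0% and 39.4% in the controls and 31.4% and 30.4% in the knockdown samples. The share was 7.85 percentage points lower and the groups did not overlap, but the exact two-sided permutation test of 2 against 2 cannot go below p = 0.3333. HKDC1, a further hexokinase family gene outside the members, had 43.9 and 20.4 FPKM in the controls and 24.7 and 13.5 in the knockdown samples. Its groups overlapped. HKDC1 is not in the sum above. With HKDC1 added, the HK2 share would be higher in shKIAA1429 replicate 2 than in shCtrl replicate 1. The groups would then overlap, so their separation holds only for HK1 and HK2 alone. SLC2A1, the widespread glucose transporter GLUT1, ranged from 17.2 to 21.5 FPKM over the 4 samples. SLC2A3, the high-affinity transporter GLUT3, ranged from 3.24 to 5.74 FPKM, and the groups overlapped for both transporters.

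Within HK1, the transcript of the red-cell form was listed at 3.78 and 3.04 FPKM in the controls, at 0.306 in shKIAA1429 replicate 1 and at 0 in shKIAA1429 replicate 2. The knockdown values were far below those of the controls. HK1-201 was chosen after its values were seen, since its mean of 1.78 FPKM is below the 5 FPKM set for naming transcripts. Its log2 fold change was -1.94 ± 0.25 SE (limma over 24996 transcripts, unadjusted p = 0.0018, adjusted p = 0.237). HK1-202, the widespread form, had 30.6 and 33.1 FPKM in the controls and 33.5 and 37.4 in the knockdown samples, with both knockdown samples higher (log2 fold change 0.15 ± 0.14 SE, adjusted p = 0.980). The transcripts share 2999 exonic bases, and only 230 belong to HK1-201 alone among these 2.

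**Figure D2:**
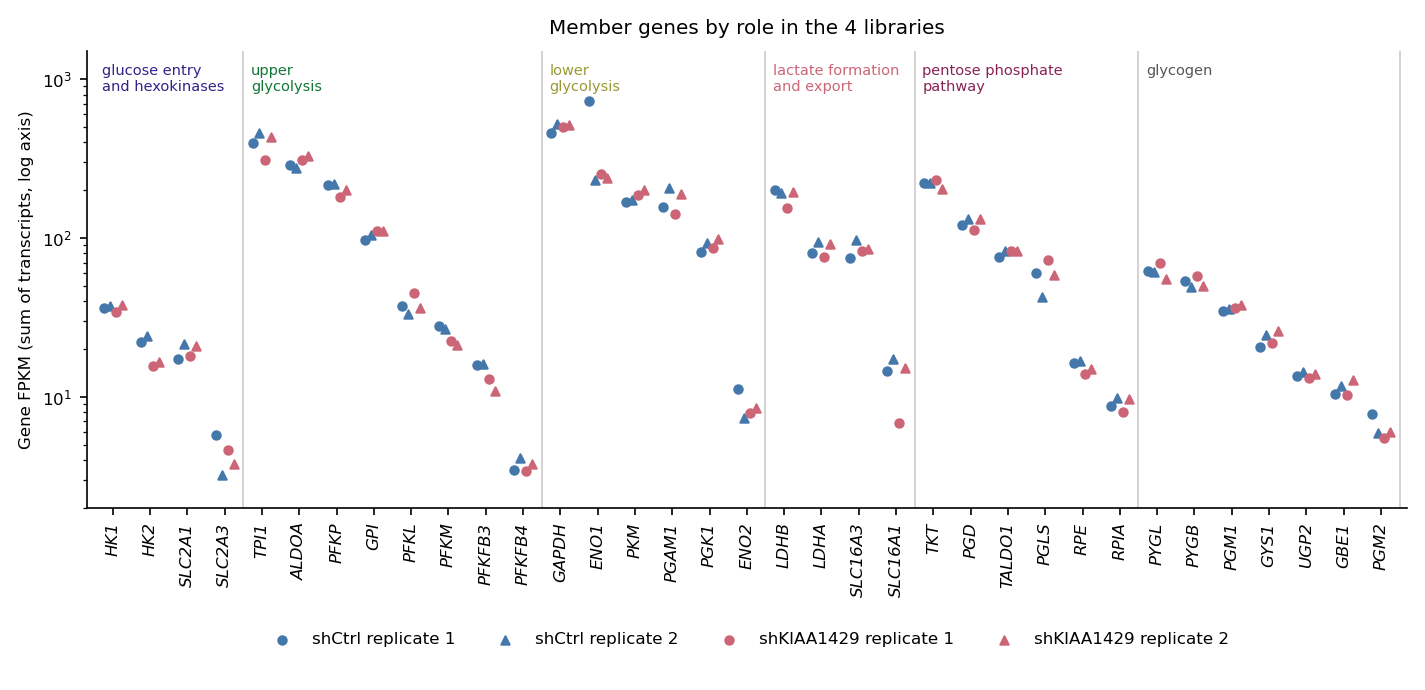
Gene FPKM (log axis) of the 35 members in each library, ordered by role and by mean level, with circles for replicate 1 and triangles for replicate 2 of shCtrl (blue) and shKIAA1429 (red). HK2 and PFKFB3 are lower in both red samples, and ENO1 stands at 731 FPKM in shCtrl replicate 1 against 232 to 251 in the others.

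In upper glycolysis 8 members were tested, 2 lay above and 3 below the controls in both knockdown samples (against 16.9% and 16.7% of all genes), and with limma 0 were called (adjusted p from 0.884 to 0.999). PFKFB3 makes fructose 2,6-bisphosphate, the strongest activator of phosphofructokinase. It had 15.9 and 16.2 FPKM in the controls and 13.0 and 10.8 in the knockdown samples. The groups did not overlap (log2 fold change -0.41 ± 0.15 SE, limma unadjusted p = 0.047, adjusted p = 0.884). Its main transcript PFKFB3-219 had 10.9 and 10.3 FPKM against 7.82 and 6.32 (log2 fold change -0.53 ± 0.18 SE, limma adjusted p = 0.794). PFKFB4, which encodes another enzyme of the same activity, had 3.44 and 4.13 FPKM in the controls and 3.42 and 3.79 in the knockdown samples, which overlapped. PFKFB3 accordingly made up 82.2% and 79.7% of the pair in the controls and 79.1% and 74.1% in the knockdown samples.

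By summed FPKM, the RNA for phosphofructokinase 1, the committed step of glycolysis, was mostly that of the platelet form in these cells. PFKP had 216 and 219 FPKM in the controls and 181 and 199 in the knockdown samples, both of which were lower (log2 fold change -0.19 ± 0.11 SE, limma adjusted p = 0.949). PFKM, the muscle form, had 28.0 and 26.7 FPKM in the controls and 22.4 and 21.3 in the knockdown samples, also both lower (log2 fold change -0.31 ± 0.13 SE, limma adjusted p = 0.899). PFKL, the liver form, had 37.5 and 33.1 FPKM in the controls and 44.9 and 36.5 in the knockdown samples, and the groups overlapped (log2 fold change 0.19 ± 0.16 SE, and 0.05 without shKIAA1429 replicate 1). Of the 3 forms together, PFKL took 13.3% and 11.9% in the controls and 18.0% and 14.2% in the knockdown samples. PFKP took 76.7% and 78.5% in the controls and 72.9% and 77.5% in the knockdown samples, which overlapped, while PFKM took 9.94% and 9.58% against 9.03% and 8.30%.

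ALDOA, the aldolase that cleaves fructose 1,6-bisphosphate, had 288 and 277 FPKM in the controls and 309 and 328 in the knockdown samples. Both knockdown samples were higher, by a log2 fold change of 0.17 ± 0.10 SE (limma adjusted p = 0.954). TPI1, which interconverts the triose phosphates, had 397 and 457 FPKM in the controls and 308 and 433 in the knockdown samples, and the groups overlapped (log2 fold change -0.22 ± 0.19 SE, and 0.03 without shKIAA1429 replicate 1). GPI, the isomerase of glucose 6-phosphate, ranged only from 97.1 to 111 FPKM, with both knockdown samples above both controls (log2 fold change 0.13 ± 0.11 SE, limma adjusted p = 0.974).

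Lower glycolysis held the most abundant member, GAPDH, the dehydrogenase that makes NADH, which is often used as a reference gene. GAPDH had 457 and 518 FPKM in the controls and 502 and 514 in the knockdown samples, which lay between the controls (log2 fold change 0.06 ± 0.11 SE). ENO1, enolase 1, had 731 and 232 FPKM in the controls and 251 and 239 in the knockdown samples. Only shCtrl replicate 1 was high, and the groups overlapped. The log2 fold change of -0.75 ± 0.54 SE, the largest in size among the members (limma adjusted p = 0.969), became 0.08 without that sample. Of the 1079 genes with a mean of at least 50 FPKM, ENO1 was the only 1 whose highest library was at least 2.5 times the next, by a factor of 2.91. That screen and its cut-offs were not among the planned comparisons. The excess lay in the long transcript ENO1-201, which had 722 FPKM in shCtrl replicate 1 and between 209 and 222 in the other 3 samples. ENO1-206, a shorter model that shares 594 of its 647 bases with ENO1-201, had 0.461 FPKM in shCtrl replicate 1 and 12.8, 17.1 and 19.8 in the other 3. ENO2, the neuronal enolase, had 11.3 and 7.31 FPKM in the controls and 7.96 and 8.45 in the knockdown samples, so ENO1 made up 98.5% and 97.0% of the pair in the controls and 96.9% and 96.6% in the knockdown samples.

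PKM had 168 and 174 FPKM in the controls and 187 and 201 in the knockdown samples. The knockdown samples were the higher ones, by a log2 fold change of 0.18 ± 0.11 SE (limma adjusted p = 0.954). Transcripts holding exon 9, printed above, summed to 149 and 154 FPKM in the controls and 164 and 177 in the knockdown samples. Transcripts holding exon 10 summed to 15.3 and 15.5 FPKM in the controls and 18.3 and 19.2 in the knockdown samples. Both sums were higher in both knockdown samples. The exon 9 share was 90.68% and 90.86% against 89.96% and 90.24%, a difference of -0.67 percentage points with no overlap (smallest exact permutation p = 0.3333).

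Which of these exons led depended on the transcript models counted. PKM-220 and PKM-205, which hold exon 9 and carried most of the level, end before the 3′ end of the gene, and they share 1468 exonic bases with each other and 1463 and 1301 with the exon 10 transcript PKM-202. Among transcripts that reach within 10 bases of the 3′ end, the exon 10 type took 75.5% and 76.0% in the controls and 76.8% and 74.9% in the knockdown samples, with 15.3 to 19.2 FPKM against 4.88 to 6.41 FPKM for the exon 9 type. That share overlapped between the groups. PKM-220 had 71.1 and 74.7 FPKM in the controls and 109 and 87.1 in the knockdown samples (log2 fold change 0.41 ± 0.15 SE, limma unadjusted p = 0.059). PKM-205 had 72.3 and 73.8 FPKM in the controls and 48.8 and 82.1 in the knockdown samples, which lay on both sides of the controls.

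**Figure D3:**
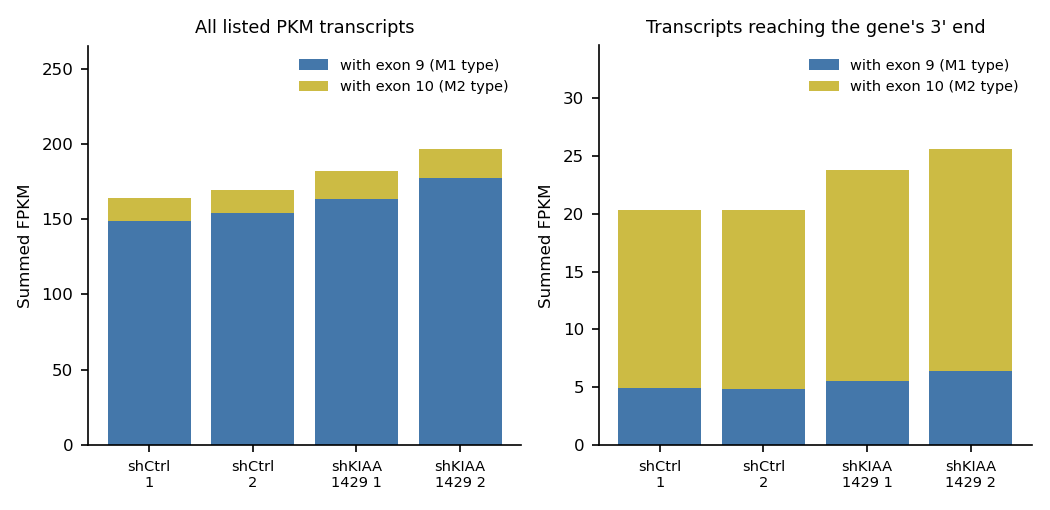
Summed FPKM of PKM transcripts with exon 9 (blue) or exon 10 (yellow) in each library, for all listed transcripts (left) and for those reaching the 3′ end of the gene (right), on separate linear axes from zero. Exon 9 makes up 89.96% to 90.86% on the left, and exon 10 makes up 74.9% to 76.8% on the right.

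The other 2 members of lower glycolysis were PGK1 and PGAM1. PGK1, the kinase of the first ATP-yielding step, ranged from 81.3 to 98.5 FPKM (log2 fold change 0.08 ± 0.14 SE), and PGAM1, the phosphoglycerate mutase, ranged from 142 to 207 FPKM (log2 fold change -0.14 ± 0.21 SE). The groups overlapped for both. PGAM1 was 0.751 times as high in replicate 1 as in replicate 2 of shCtrl and 0.753 times in shKIAA1429.

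The 4 members of lactate formation and export all had negative log2 fold changes, from -0.57 to -0.02, and overlapping groups. LDHB, the lactate dehydrogenase subunit of heart, had 199 and 192 FPKM in the controls and 154 and 195 in the knockdown samples, with 1 knockdown sample among the controls (log2 fold change -0.18 ± 0.15 SE, and -0.01 without shKIAA1429 replicate 1). LDHA, the subunit of muscle and of many tumours, ranged from 75.8 to 93.9 FPKM. LDHA was the smaller part of the pair in every sample, with 28.7% and 32.8% in the controls and 33.0% and 32.0% in the knockdown samples, which overlapped. SLC16A1, the monocarboxylate transporter MCT1, had 14.5 and 17.2 FPKM in the controls and 6.83 and 15.2 in the knockdown samples. Only shKIAA1429 replicate 1 was low, and the log2 fold change was -0.57 ± 0.37 SE (limma adjusted p = 0.954), which was -0.05 without that sample and -1.10 without shKIAA1429 replicate 2. SLC16A3, the lactate exporter MCT4, ranged from 74.5 to 97.7 FPKM and made up between 83.7% and 92.4% of the pair.

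**Figure D4:**
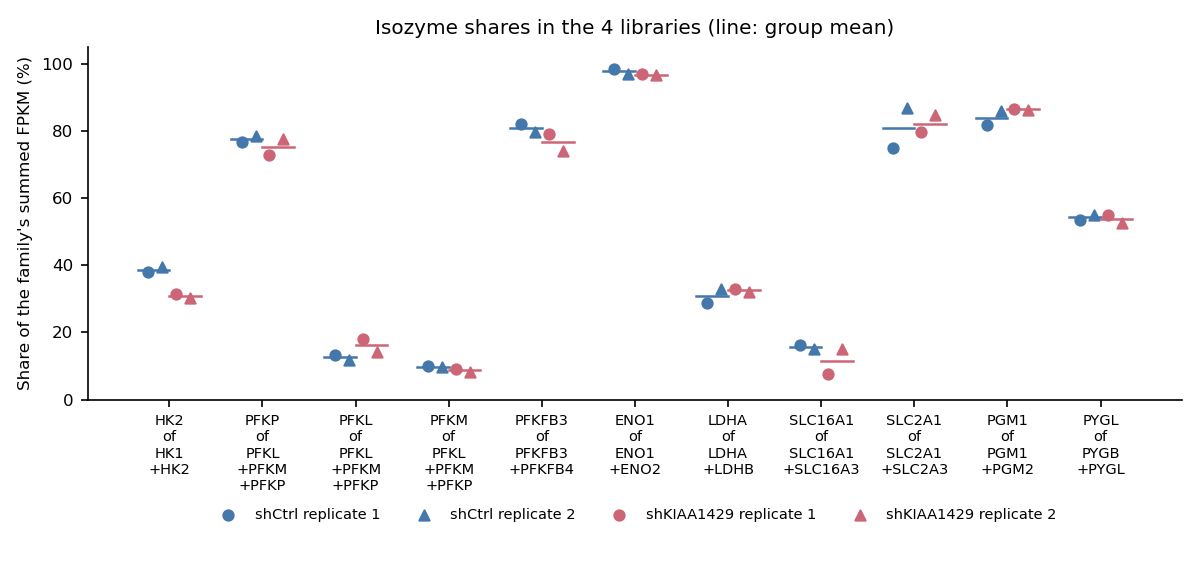
Share (%) of the summed FPKM of an isozyme family taken by the named gene in each library, with lines at the group means. Of HK1 and HK2 without HKDC1, HK2 takes 38.0% and 39.4% in shCtrl and 31.4% and 30.4% in shKIAA1429. The LDHA and PYGL shares overlap.

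In the pentose phosphate pathway 6 members were tested and only RPE did not overlap between the groups, being lower in both knockdown samples as were 16.7% of all genes. TKT, the transketolase of the nonoxidative branch, had 220 and 222 FPKM in the controls and 233 and 203 in the knockdown samples, which lay on both sides of the controls. PGLS, the lactonase of the oxidative branch, had 60.2 and 42.6 FPKM in the controls and 72.2 and 58.5 in the knockdown samples, and the groups overlapped (log2 fold change 0.35 ± 0.22 SE, limma adjusted p = 0.954). Leaving out shCtrl replicate 2 gave 0.11, and leaving out shCtrl replicate 1 gave 0.60. PGD, the decarboxylating dehydrogenase that makes NADPH, ranged from 113 to 131 FPKM. TALDO1, the transaldolase, ranged from 76.2 to 83.2 FPKM, and RPIA, the ribose phosphate isomerase, from 8.05 to 9.89. RPE, the epimerase that feeds transketolase, had 16.4 and 16.8 FPKM in the controls and 13.8 and 15.1 in the knockdown samples (log2 fold change -0.19 ± 0.14 SE, limma adjusted p = 0.969).

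Of the 7 glycogen members, 6 lay within 0.1 of zero on the log2 scale. PGM1, the main phosphoglucomutase, had 34.6 and 35.9 FPKM in the controls and 36.0 and 37.9 in the knockdown samples, a non-overlapping difference of 0.07 ± 0.13 SE on the log2 scale. PGM2, which prefers pentose phosphates, had 7.74 and 5.91 FPKM in the controls and 5.54 and 5.998 in the knockdown samples, and the groups overlapped (log2 fold change -0.20 ± 0.18 SE, and -0.03 without shCtrl replicate 1). PGM1 made up 81.7% and 85.9% of the pair in the controls and 86.7% and 86.3% in the knockdown samples. UGP2, which makes UDP-glucose, ranged from 13.2 to 14.3 FPKM, the synthase GYS1 from 20.5 to 25.9 and the branching enzyme GBE1 from 10.3 to 12.8. The phosphorylases that release glucose 1-phosphate were at similar levels, PYGB from 49.4 to 57.6 FPKM and the liver form PYGL from 55.3 to 70.0.

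Transcripts were examined next, since a gene sum can hide a change in the mixture. The members had 158 listed transcripts, of which 117 were tested, and 5 members had a single listed transcript. With limma 0 were called, against 0 of 24996 (0%), and the smallest adjusted p was 0.237. An unadjusted p under 0.05 was found for 3, where 6.28% of all transcripts reached it in either direction. These were HK1-201, HK2-201 and PFKFB3-219, all lower. A log2 fold change over 1 in size with a mean of at least 5 FPKM was found for 4 transcripts, ALDOA-204 (1.49), ALDOA-221 (-2.01), ENO1-206 (2.12) and PFKP-204 (1.60), each with an adjusted p of at least 0.930. PFKP-204 had 14.8 and 0.116 FPKM in the controls and 7.47 and 18.3 in the knockdown samples, so its replicates differed more than its groups.

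Some transcripts were high in 1 replicate of each group while the gene sum was stable. GPI-205 and PYGL-205 were chosen for this pattern after their values were seen. GPI-205 had 2.47 and 33.0 FPKM in the controls and 46.6 and 2.89 in the knockdown samples, although the highest sum of GPI was 1.14 times the lowest. All 1574 exonic bases of GPI-205 also lie in GPI-202. PYGL-205 was listed at 0 and 14.0 FPKM in the controls and 16.3 and 0 in the knockdown samples, while the highest sum of PYGL was 1.27 times the lowest. LDHB-201 had 155 and 59.6 FPKM in the controls and 53.9 and 64.6 in the knockdown samples, and LDHB-203 had 42.1 and 131 against 97.9 and 128. These LDHB transcripts share 1255 bases, with 48 private to LDHB-201 and 283 to LDHB-203. Unlike GPI-205 and PYGL-205, LDHB-201 was high in shCtrl replicate 1 alone, where LDHB-203 was lowest. Because GPI-205 and PYGL-205 were picked for their difference between replicates, their spread within groups says nothing about other transcripts.

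**Figure D5:**
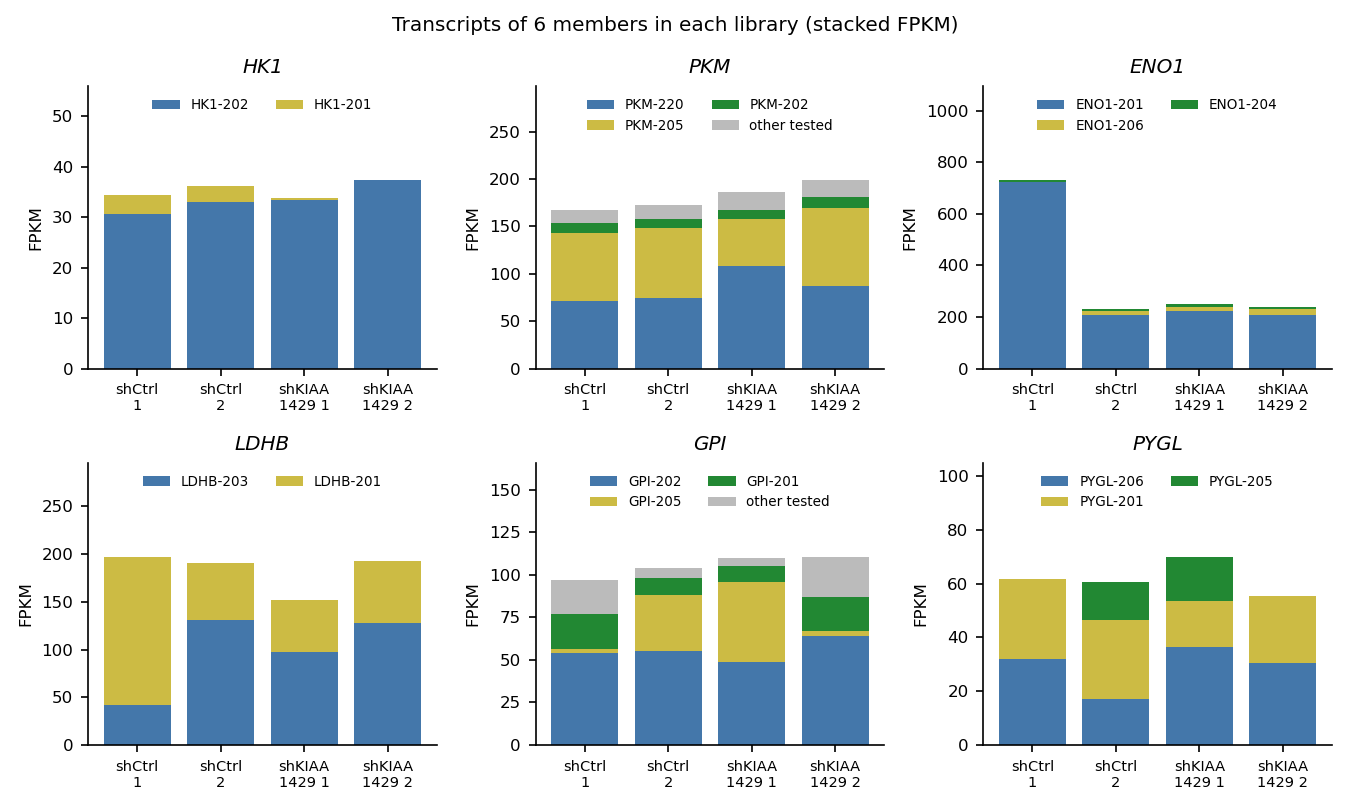
Stacked FPKM of the main tested transcripts of HK1, PKM, ENO1, LDHB, GPI and PYGL in each library, on linear axes from zero. HK1-201 (yellow) is visible only in the controls and in trace in shKIAA1429 replicate 1, and GPI-205 and PYGL-205 are high in shCtrl replicate 2 and shKIAA1429 replicate 1.

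Because KIAA1429 acts in m6A writing, the sense sequence of each member's main transcript was searched for GGAC, the core of the usual m6A motif. All 35 held it, as did 98.7% of the main transcripts of 11324 genes, so its presence did not set the members apart. The median density was 5.07 per kilobase in the members and 3.75 in all genes. HK2-201 held 37 over 5626 bases (6.58 per kilobase), of which 8 lay after the stop codon, and PFKFB3-219 held 16 (6.92 per kilobase). GAPDH-201 and ENO1-201 held 4 each (3.11 and 2.25 per kilobase). The densest of the members was PGLS-201 with 8.93 per kilobase, and the log2 fold change of PGLS was 0.35. A relation between motif density and fold change was not tested. A match is a sequence of letters and not a measured m6A site.

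Other genes of these routes were taken from a list of 51, of which 31 were tested. With limma 0 were called and 0 had an unadjusted p under 0.05 in either direction. H6PD, PHKA2, PHKB and SLC37A4 were above the controls in both knockdown samples and BSG, MPC2, PHKA1, PRPS1 and TIGAR below, 4 and 5 of the 31 where 16.9% and 16.7% of all genes were so placed, and the median log2 fold change was 0.02. H6PD, which makes NADPH in the endoplasmic reticulum, had 4.35 and 1.72 FPKM in the controls and 8.08 and 5.03 in the knockdown samples (log2 fold change 0.96 ± 0.39 SE, limma adjusted p = 0.897).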

How the data were processed

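RNA from 2 shCtrl and 2 shKIAA1429 samples of HCCLM3 cells was sequenced, and groups and replicate numbers were taken from the sample titles. The files deposited by the authors hold FPKM per GENCODE transcript on hg19; the tool that made these values is not given in the sources used here. The submitters' processing notes name Bowtie2 2.1.0, and the methods of the study describe a count pipeline whose counts were not used here. Depth is therefore unknown, and how strand and multiply mapped reads were handled is not given, so overlapping and near-identical genes remain uncertain. No label says that replicates were separate cultures, so p-values measure the spread between these samples.

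FPKM of transcripts were summed per gene. Genes with at least 1 FPKM in at least 2 samples were tested on log2(FPKM + 1) with limma 3.58.1 (R 4.3.3). The test was two-sided, with eBayes and a mean trend, prior degrees of freedom 2.87 and no covariate. It was checked on simulated data with independent noise of the variances fitted here. That check does not cover same-numbered samples that vary together, or a single outlying library. The design allowed a count test or a test of normalized values, and the second was used. Members and lists were chosen with earlier results of these data known. Values in every sample were given for the 8 members with the highest mean, those with an unadjusted p under 0.05, the 10 with the largest absolute log2 fold change and those whose isozyme share did not overlap. Transcripts were named at a mean of at least 5 FPKM with an unadjusted p under 0.05, an absolute log2 fold change over 1, or the first or second rank in such a member. Of 158 listed transcripts of members, 154 matched the GENCODE 44 annotation lifted to GRCh37, and 103 had the same start and end. Exons were read from that annotation and genome. The alternatives were 2 other scalings, 2 other filters, a pseudocount of 0.1, the replicate block, a robust variance, the adjusted p alone, protein-coding transcripts only, shares without low transcripts, and leaving out each sample.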

Additional observations from a re-analysis of the deposited data

How the results depend on the processing

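No member transcript was called with a pseudocount of 0.1 or the replicate block, the 2 alternatives run for transcripts. No member was called under the alternatives that kept every sample, but calls were not counted for protein-coding transcripts only. HK2 and PFKFB3 were lower in every alternative fit, HK2 from -0.57 to -0.45 on the log2 scale when 1 sample was left out. The count of members with an unadjusted p under 0.05, 2 as reported, was 1 with upper quartile scaling and ranged from 0 to 3 when 1 sample was left out. With the replicate block it was 4, and the adjusted p of HK2 was 0.371. The labels do not say that numbers pair the samples. Across all genes tested, the difference between replicates 1 and 2 in shCtrl correlated at 0.32 with that in shKIAA1429. The block changed no call. The median log2 fold change of the members was -0.0841 when FPKM were scaled to the summed FPKM, where that of all genes was -0.05, and ranged from -0.0999 to 0.0260 when 1 sample was left out. It was -0.03 without ENO1, an alternative chosen after seeing the data. Over all genes, 0 were called in the fits that kept every sample, again with no count for protein-coding transcripts only.

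Of the 19 members named by the rule, HK1 changed sign with protein-coding transcripts only (0.0108), and 7 changed sign when 1 sample was left out. Their ranges over these fits were -1.57 to 0.0774 for ENO1, -0.412 to 0.148 for ENO2 and -0.0286 to 0.153 for GAPDH, where shCtrl replicate 1 decided the sign, and -0.106 to 0.0399 for HK1, -0.155 to 0.0511 for PFKFB4, -0.126 to 0.0734 for TKT and -0.465 to 0.0260 for TPI1. Without a change of sign, the ranges were -1.10 to -0.048 for SLC16A1, 0.109 to 0.598 for PGLS, 0.048 to 0.340 for PFKL, -0.344 to -0.008 for LDHB and -0.370 to -0.030 for PGM2. The cause was not tested. A fit that leaves 1 sample in a group assumes that it varies like the other group. With 2 samples a group and unknown depth, small differences were not detectable, and a p that misses the threshold does not show that levels were equal.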

Other observations

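Replicate 1 was lower than replicate 2 in both groups for 21 of the 35 members, SLC2A1, LDHA, PGAM1, PGK1 and GYS1 among them, and higher in both for 7. Over all 11657 genes tested, 34.9% were lower and 31.6% higher in both. The labels give no batch or date for the replicate numbers, and what the same-numbered samples share was not tested.

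The 35 members together took 1.04% and 0.952% of the summed FPKM of the controls and 0.845% and 0.932% of that of the knockdown samples. Without ENO1 the shares were 0.840%, 0.890%, 0.780% and 0.870% in the same order, which overlapped between the groups.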
